A study of Homo sapiens with 12 samples.

Results

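The 54 genes described here are interferon response genes, the antiviral and immune genes that most human cells switch on when interferon reaches them. They were taken as a list of symbols, and each symbol, by its current or an older name, was matched to the Ensembl identifier with the most reads. All 54 were found, with 1 identifier each, among the 57905 identifiers of the count table. Of the 54, 46 had enough reads to be tested, out of 13832 tested identifiers.

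The cells were of OCI-AML3, an established line from a human acute myeloid leukaemia, measured in 12 libraries by QuantSeq, a method that reads the 3′ end of polyadenylated transcripts. The Vehicle and SA groups, 3 libraries each, were kept for 6 days with vehicle or with SA at 500 µM. The labels do not expand SA, which in heme research often means succinylacetone, a blocker of the enzyme ALAD. The sgSCR and sgALAS1 groups, also 3 libraries each, carried a scrambled guide RNA or one against ALAS1, an early enzyme of heme synthesis, and both were given doxycycline for 7 days to turn the guide on. Both guide groups thus share transduction and doxycycline, and sgSCR differs from Vehicle in guide, doxycycline and days together, which cannot be told apart. The sources used here do not say whether the cells of a group are 1 clone or whether its libraries are separate cultures, so p-values measure the spread between libraries, which may be technical.

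Type I and type III interferons bind receptors at the cell surface, and the kinases JAK1 and TYK2 then phosphorylate STAT proteins. A complex that holds STAT2 and IRF9 binds the interferon-stimulated response element in the promoters of its target genes. Interferon gamma acts mainly through a different element, the gamma-activated site. The products of the target genes sense viral nucleic acid, degrade or edit it, block viral entry and release, and feed back on the signal, and myeloid cells keep many of them at a low level without infection.

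Promoter sequences show what the members share on the DNA, since the response element is the best known common feature of these genes. Windows of 300 bases, from 250 before to 50 after the transcription start, were available from RefSeq (GRCh38.p14) for 43 of the 54 members. The core of the element was searched on both strands as GAAA, any 2 bases and a second GAAA, and stood in the window of 27 of the 43 members (62.8%), against 1195 of 27305 genes (4.38%) in the whole table. A longer form, the core followed by CT, stood in 16 members (37.2%) against 0.322% of all genes, and the gamma-activated site, searched as TTCNNNGAA, in 12 members (27.9%) against 9.38%. A match describes these letters and is not evidence of binding. IFI6 and ISG15, which both rose in sgALAS1 cells over sgSCR, are shown as examples of windows with several cores. Such windows were not particular to members that rose. BST2, DDX60 and IFIT3, which rose, had 2 cores, and IFIT5, HERC5 and IFIH1, which did not pass over sgSCR, had 3. The lines give the 250 bases before the start, 5′ to 3′ on the strand of the gene, with each core in capitals. The IFI6 stretch is chr1:27672193-27672442 on the minus strand and the ISG15 stretch is chr1:1013247-1013496 on the plus strand.
IFI6: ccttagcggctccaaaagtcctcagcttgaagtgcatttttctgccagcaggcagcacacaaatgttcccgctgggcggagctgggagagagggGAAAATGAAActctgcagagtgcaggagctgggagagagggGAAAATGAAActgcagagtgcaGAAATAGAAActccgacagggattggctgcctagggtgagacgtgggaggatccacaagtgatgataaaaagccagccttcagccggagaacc
ISG15: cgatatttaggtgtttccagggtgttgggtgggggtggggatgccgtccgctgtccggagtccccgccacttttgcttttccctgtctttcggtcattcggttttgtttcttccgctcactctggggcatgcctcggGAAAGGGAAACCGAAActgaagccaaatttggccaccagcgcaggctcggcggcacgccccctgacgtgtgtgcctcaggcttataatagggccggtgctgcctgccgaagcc

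IFI6 had 3 cores, all of them also the longer form, and ISG15 had 2 that overlap. Other members with a core are shown by 30 bases around the first match, again with cores in capitals. The first 4 rose in sgALAS1 cells, and the next 2 did not pass the test there. DTX3L and PARP9 are neighbours on chromosome 3 that are read in opposite directions, and they share 1 core at chr3:122564332-122564341, seen from either strand.
BST2: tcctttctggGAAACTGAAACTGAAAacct
IFIT3: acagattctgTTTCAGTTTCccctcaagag
SAMD9: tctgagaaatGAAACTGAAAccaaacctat
PARP9: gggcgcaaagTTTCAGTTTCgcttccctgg
DTX3L: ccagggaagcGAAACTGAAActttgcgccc
EIF2AK2: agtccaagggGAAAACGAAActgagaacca

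Library totals ran from 4658513 to 7339843 reads, with a median of 5573540, and libraries of a group correlated at 0.969 to 0.978 in log2 CPM. ALAS1 (chromosome 3), the check of the guide, had 37.5, 36.4 and 31.1 CPM in Vehicle, 106, 102 and 111 in SA, 38.6, 41.9 and 37.4 in sgSCR and 26.2, 26.3 and 27.3 in sgALAS1. It was lower in every sgALAS1 library than in any sgSCR library, with a log2 fold change of -0.56 ± 0.15 (SE) (edgeR adjusted p = 0.00781), a call that ended without sgSCR replicate 2 (adjusted p = 0.0509) and against Vehicle (-0.40, adjusted p = 0.0628), and it was higher with SA (1.60 ± 0.14, adjusted p = 1.36e-10). Editing at the guide's target cannot be seen in 3′ reads. Of 14 markers of myeloid leukaemia lines 12 had enough reads to be tested, KIT had 0 reads, and the erythroid markers HBA1, HBA2, HBB and GATA1 had 0 reads in all libraries.

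The members covered a wide range of levels in these cells, given as normalised CPM, a read count scaled to the size of its library. Averaged over the 12 libraries, 5 members were at or over 100 CPM, 24 lay from 10 to under 100 CPM, 19 from 1 to under 10 CPM and 6 under 1 CPM. The 5 with the most reads were BST2, IFITM2, ADAR, IFI16 and LY6E. Each transcript gives reads at its 3′ end only, so the values do not scale with transcript length, but capture can differ between genes and the order among members is a description of reads. The 8 members with too few reads to be tested were IFIT1 (72 reads over the 12 libraries), IFITM1 (13), OASL (31), GBP1 (1), DHX58 (84), RSAD2 (65), IFI44 (25) and IFI44L (46). Several of these, such as RSAD2, IFIT1 and IFI44L, are among the genes that interferon is known to raise most. Among the 46 tested members the highest of the 4 group means was in sgALAS1 for 27, in SA for 9, in Vehicle for 7 and in sgSCR for 3, and the lowest was in sgSCR for 20, in Vehicle for 16, in SA for 8 and in sgALAS1 for 2. The reads summed over the 54 members came to 1941 to 2038 CPM in the sgALAS1 libraries, 1533 to 1576 in sgSCR, 1707 to 1788 in SA and 1522 to 1672 in Vehicle, so that the sgALAS1 range lay above the other 3.

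**Figure D1:**
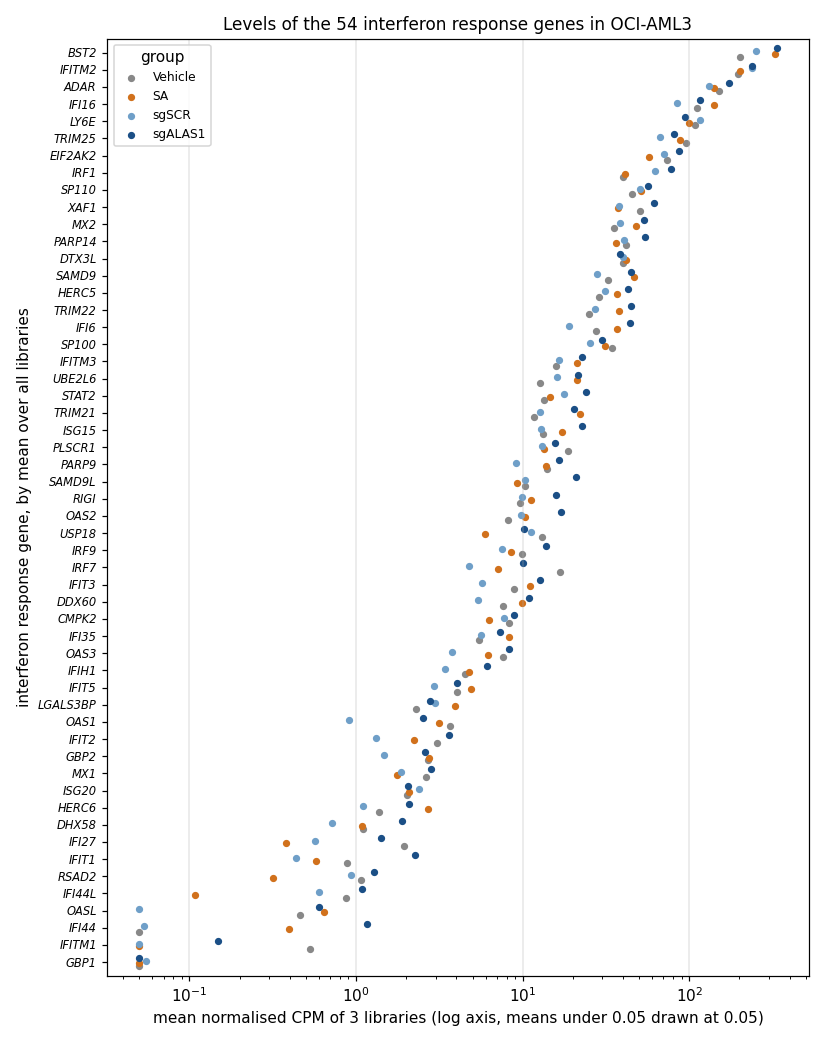
Mean normalised CPM of each of the 54 interferon response genes (rows) in the 4 groups (colours, 3 libraries each) on a log axis, with means under 0.05 CPM drawn at 0.05. BST2, IFITM2, ADAR, IFI16 and LY6E lie at the top, and for 27 of the 46 tested genes the sgALAS1 point is the one farthest to the right.

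Interferon itself was hardly seen. All 22 interferon genes, which encode the alpha, beta, epsilon, kappa, omega, gamma and lambda ligands, had an identifier in the table. Of these, 18 had 0 reads in all 12 libraries, and the others together had 13 reads, 5 in Vehicle, 0 in SA, 4 in sgSCR and 4 in sgALAS1. The 5 Vehicle reads were of IFNB1, and IFNG had 4 reads in sgSCR and 2 in sgALAS1. A count of 0 allows up to 3 reads of a gene in a library, a limit for counting error only, and does not show that the gene was off.

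With the ALAS1 guide the interferon response genes were higher more often than lower. Of the 46 tested members 14 rose against sgSCR and 0 fell, at an adjusted p under 0.05 by edgeR's quasi-likelihood test, where 12% of all tested genes passed in either direction, 5.05% as higher and 6.94% as lower. The count was 9 without sgSCR replicate 1, 8 without sgSCR replicate 2 and 9 without sgALAS1 replicate 1. At an unadjusted p under 0.05, 27 members were higher and 1 lower, against 1609 higher and 1828 lower of the 13832 tested genes. The median log2 fold change of the 46 was 0.463, against -0.00337 over all tested genes, and single values ran from -0.302 to 1.48, with 40 above 0. In 22 members every sgALAS1 library lay above every sgSCR library and in 0 below, while 13.6% of all tested genes were separated upward and 15.5% downward. Single changes below are log2 fold changes ± SE with adjusted p-values from the same test. In bulk samples, fewer cells of a kind and less RNA per cell cannot be told apart.

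With SA the share of members that passed was near that of all genes. Of the 46 tested members 4 rose against Vehicle and 2 fell (13%). Over all tested genes 11.2% passed in either direction, 4.84% as higher and 6.32% as lower. The risers were BST2, TRIM21, UBE2L6 and TRIM22, and the members that fell were IRF7 and USP18. Without SA replicate 2 the 6 calls became 3. The median log2 fold change was 0.0455 (all tested genes -0.00954), with a range from -2.32 to 0.974. Groups were separated upward in 10 members and downward in 6, against 12.6% and 14.8% of all tested genes.

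The controls were not alike. In sgSCR against Vehicle 0 members passed as higher and 2, IRF7 and TRIM25, as lower, where 1.45% of all tested genes passed in either direction, 0.477% as higher and 0.969% as lower. Without Vehicle replicate 3, sgSCR replicate 1 or sgSCR replicate 2, 1 member passed. At an unadjusted p under 0.05, 3 members were higher and 10 lower, against 834 higher and 904 lower of the 13832 tested genes. The median was -0.161 (all tested genes 0.0072). In 9 members every sgSCR library lay below every Vehicle library and in 3 above, against 8.73% and 8.42% of all tested genes. Since sgSCR is the base of the sgALAS1 comparison, each gene that rose or fell with the guide is given below with its value against Vehicle as well. Of the 14 members that rose against sgSCR, 6 also passed as higher against Vehicle (ISG15, OAS2, TRIM22, IFI6, SAMD9L and BST2), 7 were higher without passing, and IRF7 was lower. Against Vehicle 12 of the 46 tested members were higher in sgALAS1 and 0 lower, where 6.5% of all tested genes passed as higher and 8.52% as lower, and the median was 0.303. Against sgSCR in place of Vehicle, 7 members were higher in SA and 2 lower, where 6.04% of all tested genes passed as higher and 7.72% as lower. These counts share libraries with those above. Of the 6 calls with SA, 3 (USP18, TRIM21 and BST2) passed in the same direction against sgSCR.

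**Figure D2:**
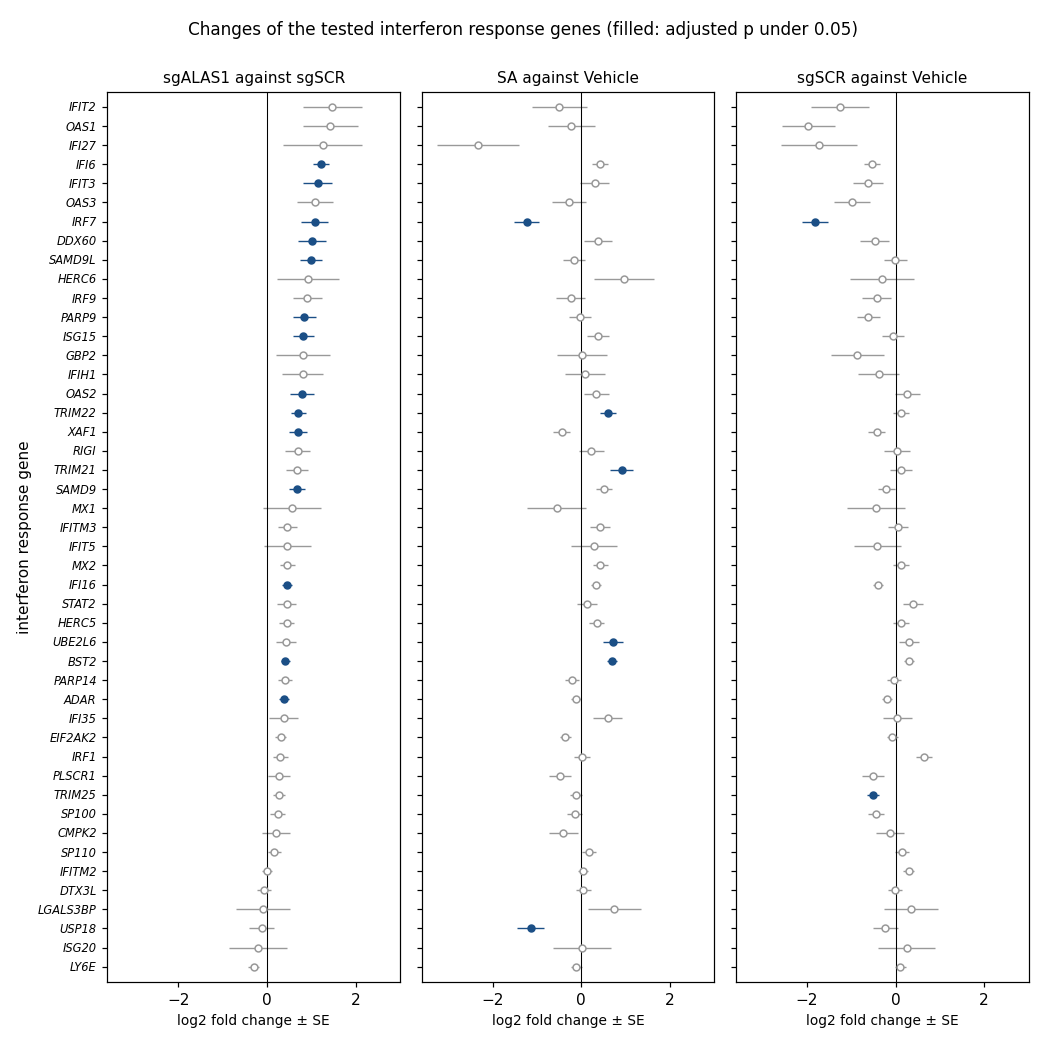
Log2 fold change ± SE of the 46 tested interferon response genes in sgALAS1 against sgSCR, SA against Vehicle and sgSCR against Vehicle, ordered by the first, with filled points for an adjusted p under 0.05. In the left panel 14 points are filled, all to the right of 0, in the middle panel 4 lie to the right and 2 to the left, and in the right panel the 2 filled points lie to the left.

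The transcription factors that carry the signal come first. IRF7 (chromosome 11), which drives interferon alpha genes and is itself raised by interferon, passed the test with the guide, with SA and between the controls. It had 18.6, 16.8 and 14.9 CPM in Vehicle, 8.94, 6.17 and 6.32 in SA, 6.18, 4.5 and 3.64 in sgSCR and 10.2, 7.81 and 12.2 in sgALAS1. All SA, sgSCR and sgALAS1 libraries lay below all Vehicle libraries, and all sgALAS1 libraries lay above all sgSCR libraries. IRF7 fell with SA (-1.23 ± 0.28, adjusted p = 0.00304), rose with the ALAS1 guide over sgSCR (1.08 ± 0.30, adjusted p = 0.0146) and was lower in sgSCR than in Vehicle (-1.82 ± 0.30, adjusted p = 0.000261). The 2 effects differed by 2.31 (adjusted p = 0.00084). Each direction depends on its control: against Vehicle the sgALAS1 value was -0.74 (adjusted p = 0.0649), and against sgSCR the SA value was 0.59 (adjusted p = 0.226). The rise over sgSCR was lost without sgSCR replicate 2 or 3 or sgALAS1 replicate 3 (highest adjusted p 0.0798), while the fall with SA, the gap and the difference held without any 1 library.

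IRF1, STAT2 and IRF9 did not pass with the guide over sgSCR or with SA over Vehicle. IRF1, an activator that also answers interferon gamma, had 37.2, 48.7 and 34.9 CPM in Vehicle, 52.5, 33.6 and 36.8 in SA, 58.2, 79.1 and 50.4 in sgSCR and 71.2, 86.3 and 74 in sgALAS1, at 0.30 against sgSCR (adjusted p = 0.283). Its sgALAS1 libraries overlapped with sgSCR but lay above all Vehicle libraries, and against Vehicle it was higher by 0.94 (adjusted p = 0.000179). All sgSCR libraries of IRF1 also lay above all Vehicle libraries, so the value against Vehicle includes the gap between the controls. STAT2 was at 0.45 against sgSCR (adjusted p = 0.195) and IRF9 at 0.91 (adjusted p = 0.0676).

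Among the sensors of foreign nucleic acid, IFI16 and DDX60 rose with the ALAS1 guide and RIGI and IFIH1 did not pass. IFI16, which binds DNA and is abundant in myeloid cells, had 117, 113 and 103 CPM in Vehicle, 147, 141 and 134 in SA, 76.7, 91.9 and 85.3 in sgSCR and 108, 114 and 124 in sgALAS1. SA libraries were the highest of the 4 groups and sgSCR libraries the lowest, with no overlap between sgALAS1 and sgSCR. It rose by 0.45 ± 0.12 over sgSCR (adjusted p = 0.00801), with 0.0507 as the adjusted p for the SA value of 0.34, and against Vehicle the sgALAS1 value was 0.06 (adjusted p = 0.813). The rise was lost without sgSCR replicate 1 (adjusted p = 0.0686). DDX60, a helicase that assists RIG-I, had 4.18, 7.55 and 4.46 CPM in sgSCR and 15.3, 9.45 and 8.2 in sgALAS1, without overlap (1.02 ± 0.32, adjusted p = 0.0283). Vehicle overlapped with sgSCR, at 7.31, 7.62 and 7.79 CPM, and against it the value was 0.55 (adjusted p = 0.255). The DDX60 call was lost without sgSCR replicate 1 or 3 or sgALAS1 replicate 1 (highest adjusted p 0.253). RIGI, the gene of RIG-I, and IFIH1, the gene of MDA5, were at 0.69 and 0.80 against sgSCR (adjusted p = 0.11 and 0.285).

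ADAR and EIF2AK2 act on double-stranded RNA, the first by editing it and the second, the kinase PKR, by stopping translation when it binds. ADAR had 139, 156 and 159 CPM in Vehicle, 135, 147 and 139 in SA, 139, 113 and 143 in sgSCR and 168, 172 and 176 in sgALAS1. All sgALAS1 libraries were above all libraries of the other groups, but the distance was small: 0.38 ± 0.11 over sgSCR (adjusted p = 0.0198) and 0.18 over Vehicle (adjusted p = 0.314). The call was lost without sgSCR replicate 2 or sgALAS1 replicate 1, 2 or 3 (highest adjusted p 0.15), and with SA the value was -0.11 (adjusted p = 0.603). EIF2AK2 had 74.5, 65.2 and 81.4 CPM in Vehicle, 54, 62.9 and 55.4 in SA, 65.1, 71 and 73.9 in sgSCR and 83.5, 85.6 and 91.5 in sgALAS1. SA libraries were the lowest and sgALAS1 libraries the highest, without overlap with their controls, but neither value passed: -0.36 with SA (adjusted p = 0.069) and 0.31 with the guide (adjusted p = 0.118). Their difference was 0.67 (adjusted p = 0.0598).

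The OAS enzymes make a short adenylate chain that activates RNase L. OAS2 had 7.17, 7.45 and 9.91 CPM in Vehicle, 9.71, 8.16 and 13 in SA, 7.97, 9.48 and 11.9 in sgSCR and 13, 18.2 and 19.9 in sgALAS1, and its sgALAS1 libraries lay above all sgSCR and Vehicle libraries. It rose by 0.79 ± 0.27 over sgSCR (adjusted p = 0.0494) and by 1.05 over Vehicle (adjusted p = 0.00566). The first call was lost without sgSCR replicate 1 or 2 or sgALAS1 replicate 2 or 3 (highest adjusted p 0.194) and without the filter on low counts. OAS1 and OAS3 did not pass: OAS1 had 4.55, 3.55 and 2.83 CPM in Vehicle, 0.598, 0.964 and 1.16 in sgSCR and 2.32, 2.36 and 2.88 in sgALAS1, at 1.43 over sgSCR (adjusted p = 0.133), and OAS3 was at 1.09 (adjusted p = 0.0737). For OAS1 the sgSCR libraries were the lowest of the 4 groups and the sgALAS1 libraries overlapped with Vehicle.

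Some of the IFIT proteins bind viral RNA that lacks the cap methylation of host RNA. IFIT3 had 7.86, 10.2 and 8.67 CPM in Vehicle, 6.61, 17.3 and 9.08 in SA, 3.59, 4.98 and 8.6 in sgSCR and 12.7, 14.2 and 11.5 in sgALAS1. Its sgALAS1 libraries lay above all sgSCR and Vehicle libraries, and SA replicate 2, at 17.3 CPM, stood above them. IFIT3 rose by 1.15 ± 0.33 over sgSCR (adjusted p = 0.0175), a call lost without sgSCR replicate 1 or 2 or sgALAS1 replicate 1 or 2 (highest adjusted p 0.116), and was at 0.53 against Vehicle (adjusted p = 0.298). The SA value was 0.30 (adjusted p = 0.621) and turned to -0.175 without SA replicate 2. IFIT2 and IFIT5 were tested without passing, at 1.48 and 0.46 over sgSCR.

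ISG15 is a ubiquitin-like protein that is joined to other proteins by UBE2L6 and HERC5 and removed by USP18. ISG15 had 18.6, 8.29 and 12.7 CPM in Vehicle, 14, 18.5 and 19.3 in SA, 15.7, 10.6 and 12.2 in sgSCR and 23.2, 21.6 and 23.3 in sgALAS1. The sgALAS1 libraries lay above all libraries of the other groups. ISG15 rose by 0.82 ± 0.25 over sgSCR (adjusted p = 0.0212) and by 0.77 over Vehicle (adjusted p = 0.0269), and the first call was lost without sgSCR replicate 2 or 3 or sgALAS1 replicate 1 (highest adjusted p 0.118). With SA it was at 0.38 (adjusted p = 0.365).

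Of the enzymes of this cycle, UBE2L6 rose and USP18 fell with SA. UBE2L6, the conjugating enzyme, had 16, 10.7 and 11.7 CPM in Vehicle, 25.1, 20.7 and 18 in SA, 17.5, 17.8 and 12.6 in sgSCR and 23, 21.3 and 20.2 in sgALAS1. SA and sgALAS1 libraries lay above all libraries of their controls. It rose by 0.72 ± 0.22 with SA (adjusted p = 0.0292), a call lost without Vehicle replicate 2 or 3 or SA replicate 1 or 2 (highest adjusted p 0.165) and against sgSCR (0.41, adjusted p = 0.235). USP18, which removes ISG15 and also blocks the type I receptor, had 11.7, 12.2 and 15.2 CPM in Vehicle, 5.44, 6.96 and 5.35 in SA, 14.3, 12.4 and 6.78 in sgSCR and 12, 7.27 and 11.3 in sgALAS1. All SA libraries lay below all Vehicle libraries, and sgSCR and sgALAS1 overlapped. USP18 fell with SA (-1.14 ± 0.30, adjusted p = 0.0108), a call lost without Vehicle replicate 3 or SA replicate 3 (highest adjusted p 0.0594), and was at -0.12 with the guide (adjusted p = 0.856). HERC5, the main ISG15 ligase in human cells, and its relative HERC6 did not pass in either arm, with HERC5 at 0.35 with SA and 0.44 with the guide.

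Among the TRIM ubiquitin ligases, TRIM22 rose in both arms. TRIM22, which restricts retroviruses and influenza virus, had 32.6, 19.8 and 22.3 CPM in Vehicle, 36.7, 40 and 37.6 in SA, 28.9, 27.6 and 25 in sgSCR and 45.8, 42 and 45.4 in sgALAS1. Neither SA nor sgALAS1 libraries overlapped with their controls. It rose by 0.61 ± 0.18 with SA (adjusted p = 0.0192) and by 0.71 ± 0.17 with the guide (adjusted p = 0.00448). The SA call was lost without Vehicle replicate 2 or 3 or SA replicate 2 (highest adjusted p 0.147) and against sgSCR (0.49, adjusted p = 0.0569), while the guide call held without any 1 library and against Vehicle (0.83, adjusted p = 0.000738).

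TRIM21, a receptor for antibody inside the cell, had 10.9, 12.5 and 11.9 CPM in Vehicle, 15.9, 26.5 and 23.8 in SA, 7.97, 17 and 13.1 in sgSCR and 25.9, 19.3 and 16.2 in sgALAS1. SA libraries lay above all Vehicle libraries, and sgALAS1 and sgSCR overlapped. It rose by 0.91 ± 0.25 with SA (adjusted p = 0.0137), lost without SA replicate 2 or 3 (highest adjusted p 0.0742), and was at 0.69 with the guide (adjusted p = 0.0691). TRIM25, which ubiquitinates RIG-I, differed between the controls. It had 93.4, 98.8 and 93.8 CPM in Vehicle and 65.3, 65.1 and 70.4 in sgSCR, without overlap (-0.51 ± 0.13, adjusted p = 0.0384). That call was lost without Vehicle replicate 2 or 3 or sgSCR replicate 1, 2 or 3 (highest adjusted p 0.164), and TRIM25 was at -0.11 with SA and 0.27 with the guide, neither past the test.

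PARP9 and DTX3L form a complex that modifies histones, and they share the response element printed above. PARP9 had 13.5, 9.82 and 18.9 CPM in Vehicle, 13.2, 15.7 and 12.6 in SA, 9.56, 8.04 and 9.92 in sgSCR and 17.6, 14.2 and 17.7 in sgALAS1. The sgALAS1 libraries lay above all sgSCR libraries and within the Vehicle range. PARP9 rose by 0.85 ± 0.26 over sgSCR (adjusted p = 0.023), a call lost without sgSCR replicate 1 or 2 or sgALAS1 replicate 1 or 3 (highest adjusted p 0.104), and was at 0.23 against Vehicle (adjusted p = 0.601). DTX3L had 45.6, 31.2 and 43 CPM in sgSCR and 36.4, 34.7 and 43.7 in sgALAS1, which overlap (-0.06 ± 0.16, adjusted p = 0.871). Whether the 2 genes differ in their change was not tested. PARP14, which lies nearby on chromosome 3, was at 0.41 (adjusted p = 0.0767).

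IFI6, SAMD9L, SAMD9, XAF1 and BST2 have separate roles. IFI6, which opposes cell death and restricts flaviviruses, had 25.2, 30.3 and 26.9 CPM in Vehicle, 36.7, 45 and 28.5 in SA, 19.5, 15.6 and 21.7 in sgSCR and 42.9, 45.1 and 45 in sgALAS1. The sgALAS1 libraries lay close together and above all sgSCR and Vehicle libraries, and SA libraries overlapped with both Vehicle and sgALAS1. IFI6 rose by 1.23 ± 0.18 over sgSCR, 2.34-fold (adjusted p = 5.53e-06), and by 0.69 over Vehicle (adjusted p = 0.00549). It was the 1 member that also passed a test against a 1.5-fold change in this comparison, and its call held without any 1 library. The SA value was 0.42 (adjusted p = 0.134), and the difference of the effects was 0.81 (adjusted p = 0.127).

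SAMD9L and SAMD9 are neighbours on chromosome 7 whose products restrain growth and poxviruses. SAMD9L had 11.7, 8.8 and 10.6 CPM in Vehicle, 8.55, 10.9 and 8.43 in SA, 9.96, 7.88 and 13.2 in sgSCR and 19.4, 21.8 and 21.1 in sgALAS1. Vehicle, SA and sgSCR overlapped, and the sgALAS1 libraries lay above all of them. It rose by 1.0 ± 0.25 over sgSCR (adjusted p = 0.00477) and by 0.99 over Vehicle (adjusted p = 0.00395), and the first call held without any 1 library. SAMD9 had 23.2, 33.5 and 40.7 CPM in Vehicle, 47.2, 47.7 and 44.1 in SA, 33.3, 21.4 and 29.6 in sgSCR and 39.1, 47.6 and 47.4 in sgALAS1, and both SA and sgALAS1 lay above all libraries of their controls. SAMD9 rose by 0.67 ± 0.19 over sgSCR (adjusted p = 0.012), lost without sgSCR replicate 2 or sgALAS1 replicate 2 (highest adjusted p 0.112), and was at 0.47 against Vehicle (adjusted p = 0.0812) and 0.52 with SA (adjusted p = 0.0578).

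XAF1, which counters inhibitors of apoptosis, was the other member whose effects differed between the arms. It had 55.2, 59.6 and 37.3 CPM in Vehicle, 42.9, 25.7 and 43 in SA, 33.9, 41.8 and 37.4 in sgSCR and 51.7, 54.7 and 78.5 in sgALAS1. SA overlapped with Vehicle, and all sgALAS1 libraries lay above all sgSCR libraries. In sgSCR against Vehicle the value was -0.43 (adjusted p = 0.356), a gap that enters the difference of the effects. XAF1 rose by 0.70 ± 0.20 over sgSCR (adjusted p = 0.0174) and was at -0.45 with SA (adjusted p = 0.155), and the difference was 1.15 ± 0.28 (adjusted p = 0.0304). The rise was lost without sgSCR replicate 1 or 3 or sgALAS1 replicate 3 (highest adjusted p 0.107) and against Vehicle (0.27, adjusted p = 0.393). The difference was lost without Vehicle replicate 2 or SA replicate 2 or sgSCR replicate 1 or 3 or sgALAS1 replicate 3 (highest adjusted p 0.117).

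BST2, or tetherin, holds budding virus at the cell surface and was the member with the most reads. It had 229, 170.3 and 205 CPM in Vehicle, 330.3, 299.6 and 346 in SA, 260.2, 239 and 252 in sgSCR and 353, 305 and 344 in sgALAS1. Neither SA nor sgALAS1 overlapped with its control. BST2 rose by 0.69 ± 0.11 with SA (adjusted p = 3.24e-05), a call that held without any 1 library and against sgSCR (0.38, adjusted p = 0.0181). With the guide it rose by 0.42 ± 0.11 (adjusted p = 0.00882), lost without sgALAS1 replicate 1 (adjusted p = 0.0675), and by 0.73 over Vehicle (adjusted p = 6.74e-06).

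Of the 12 members that were higher in sgALAS1 than in Vehicle, 6 had not passed against sgSCR: UBE2L6, TRIM21, IRF1, HERC5, STAT2 and MX2. MX2, a dynamin-like GTPase that restricts HIV, had 40.1, 35.2 and 31.1 CPM in Vehicle, 51.5, 46.6 and 45.6 in SA, 28.3, 40.2 and 47.4 in sgSCR and 62.8, 47.1 and 49.9 in sgALAS1. The sgALAS1 libraries lay above all Vehicle libraries (0.59 ± 0.17, adjusted p = 0.0144) and overlapped with sgSCR (0.46 ± 0.17, adjusted p = 0.07). STAT2, the partner of IRF9, had 15.7, 14.7 and 9.56 CPM in Vehicle, 14, 14.1 and 15.6 in SA, 19.5, 17.4 and 15.9 in sgSCR and 20.5, 24.2 and 27.3 in sgALAS1, with the sgALAS1 libraries above all others. It was higher than in Vehicle by 0.83 ± 0.22 (adjusted p = 0.00695), and its sgSCR libraries also lay above all Vehicle libraries. HERC5 had 26.9, 28.3 and 31.3 CPM in Vehicle, 39.4, 34.8 and 35.8 in SA, 23.5, 32.6 and 37.9 in sgSCR and 48.8, 42 and 37 in sgALAS1, and its sgALAS1 libraries lay above all Vehicle libraries (0.57 ± 0.17, adjusted p = 0.021) but overlapped with sgSCR. UBE2L6 and TRIM21 were at 0.74 and 0.81 against Vehicle (adjusted p = 0.0186 and 0.024).

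**Figure D3:**
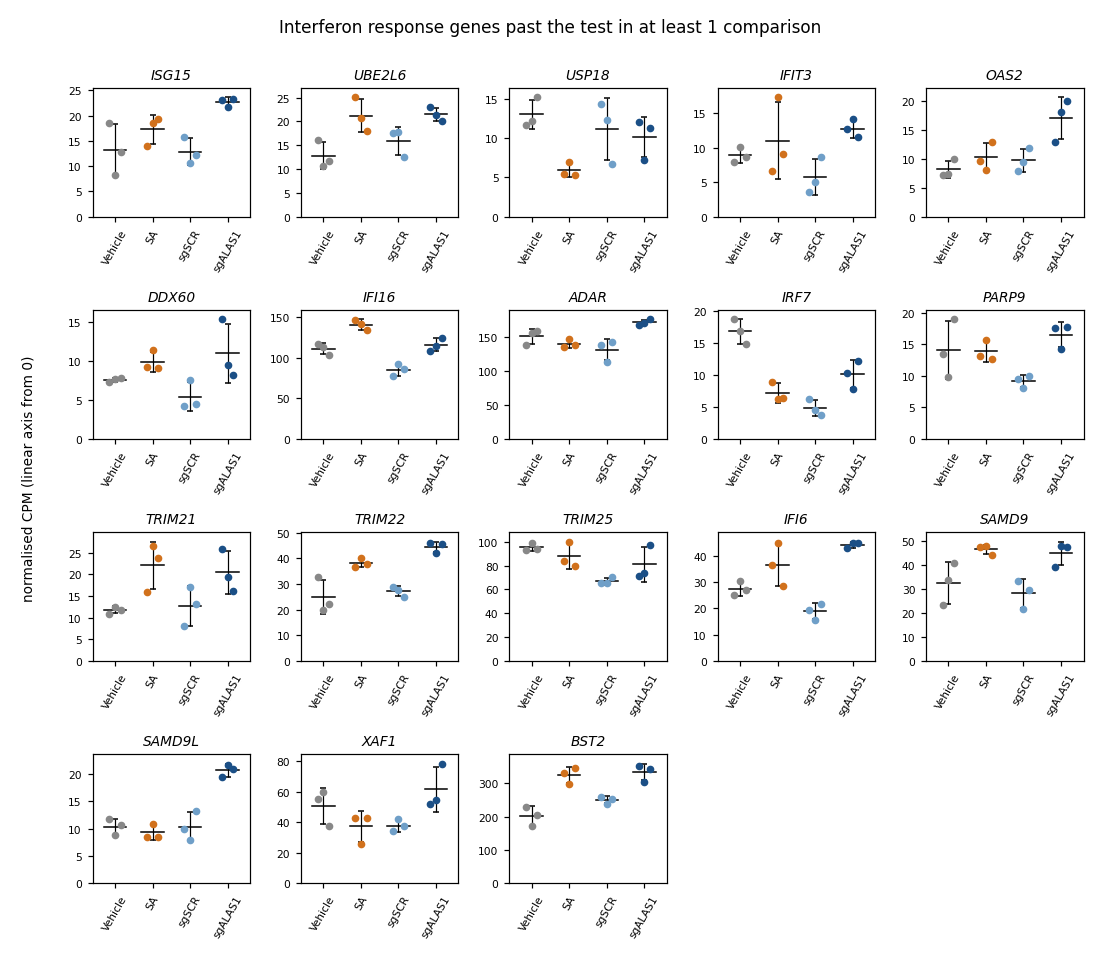
Normalised CPM of the 18 interferon response genes that passed the test with the guide, with SA, between the controls or in the difference of the effects, 1 panel per gene on a linear axis from 0, with a point per library, a line at the mean of 3 libraries and bars of 1 SD. IFI6 and SAMD9L are highest in sgALAS1, BST2 and TRIM22 are high in both SA and sgALAS1, and IRF7 is highest in Vehicle.

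IFITM2 and LY6E, the remaining members over 100 CPM, did not pass in any comparison. IFITM2, a membrane protein that blocks viral entry, had 236, 177 and 171 CPM in Vehicle, 218, 197 and 187 in SA, 232, 261 and 224 in sgSCR and 243, 219 and 254 in sgALAS1. SA overlapped with Vehicle and sgALAS1 with sgSCR, while all SA libraries lay below all sgSCR and sgALAS1 libraries. Its value was 0.04 with SA (adjusted p = 0.879) and 0.00 with the guide (adjusted p = 0.997). IFITM2 and IFITM3 are near-identical copies, and the sources used here do not say how reads that fit both were counted, so the split between them is uncertain. LY6E, a membrane-anchored protein, had 117, 108 and 97.5 CPM in Vehicle, 104, 105 and 91 in SA, 109.8, 122 and 115 in sgSCR and 92.9, 110.1 and 78.5 in sgALAS1, with values of -0.11 and -0.30. LY6E lies on chromosome 8, whose 471 tested genes had a median log2 fold change of -0.254 with SA and -0.343 with the guide, against 0.0312 between the controls.

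The difference of the effects, (sgALAS1 over sgSCR) less (SA over Vehicle), was past the test for 2 of the 46 tested members, IRF7 and XAF1, both with the higher value in the guide arm, where 1.2% of all tested genes passed in either direction, 0.441% as higher and 0.759% as lower. Without sgSCR replicate 1, sgSCR replicate 3 or sgALAS1 replicate 3, 1 member passed. At an unadjusted p under 0.05, 15 members had a higher value in the guide arm and 0 a lower one. Of the 13832 tested genes 747 were higher and 861 lower by that rule. The median difference was 0.446 (all tested genes -0.000849). A lower level in sgSCR than in Vehicle raises this difference. In sgSCR against Vehicle the members' median was -0.161, with 3 higher and 10 lower at an unadjusted p under 0.05. The part of this gap in the difference was not tested. XAF1 had passed in the guide arm only. For the other members that passed in 1 arm only, such as IFI6, SAMD9L and USP18, the difference did not pass. Those members are thus not shown to differ between the arms.

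Of the genes that restrain interferon signalling, 12 were tested. With the guide 1 rose and 2 fell against sgSCR, where 12% of all tested genes passed in either direction. Against Vehicle 0 rose and 1, SOCS1, fell (8.33%, where 15% of all tested genes passed). SOCS1, an inhibitor of JAK kinases, had few reads: 17, 31 and 9 in the sgSCR libraries and 5, 0 and 0 in the sgALAS1 libraries, with 20, 21 and 15 in Vehicle. All sgALAS1 libraries lay below all sgSCR and Vehicle libraries (-3.40 ± 0.89, adjusted p = 0.00771), and the value against Vehicle was -3.26 (adjusted p = 0.009). With so few reads the size is uncertain: without 1 library it ran from -7.23 to -2.86, and the call was lost without sgSCR replicate 2 (adjusted p = 0.0675). SOCS3, a relative that answers other cytokines, rose by 1.43 ± 0.46 over sgSCR (adjusted p = 0.0368), from 1.39, 2.09 and 1.82 CPM to 4.78, 5.45 and 4.21. Its Vehicle libraries stood at 5.1, 4.06 and 5.66 CPM and overlapped with sgALAS1 (-0.03, adjusted p = 0.973). The SOCS3 call was lost without sgSCR replicate 1, 2 or 3 or sgALAS1 replicate 1 or 2 (highest adjusted p 0.125).

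CISH, of the same family, fell by 0.91 on the log2 scale against sgSCR (adjusted p = 0.035), lost without sgSCR replicate 1, 2 or 3 or sgALAS1 replicate 1 or 2 (highest adjusted p 0.149) and against Vehicle (-0.38, adjusted p = 0.447). It had 8.69, 7.95 and 12.4 CPM in Vehicle, 8.94, 12.3 and 6.32 in SA, 15.3, 12.2 and 14.4 in sgSCR and 6.17, 6.72 and 9.53 in sgALAS1, and the sgALAS1 libraries overlapped with Vehicle. With SA 1 of the 12 fell, where 11.2% of all tested genes passed in either direction: PTPN2, a phosphatase of JAK1, had 30.2, 32.8 and 23.4 CPM in Vehicle and 19.2, 19.9 and 17.3 in SA (-0.62 ± 0.21, adjusted p = 0.0496). That call was lost without Vehicle replicate 1 or 2 or SA replicate 1, 2 or 3 (highest adjusted p 0.201). It was also lost with other size factors, with DESeq2, without mitochondrial transcripts and the identifier with most reads, and against sgSCR.

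Of 15 tested adaptors, kinases and transcription factors of nucleic acid sensing, 2 rose with the guide (13.3%, where 12% of all tested genes passed). With SA 1 rose and 1 fell (13.3%, where 11.2% of all tested genes passed), so both shares were near those of all genes. TICAM1, the adaptor of TLR3 and TLR4, had 14.5, 17.6 and 14 CPM in Vehicle, 29.5, 29.4 and 26.9 in SA, 14.7, 12.7 and 18.8 in sgSCR and 22.4, 28.3 and 23.1 in sgALAS1. Neither arm overlapped with its control, at 0.90 ± 0.20 with SA (adjusted p = 0.00237) and 0.67 ± 0.21 with the guide (adjusted p = 0.025), the latter lost without sgSCR replicate 1 or 2 or sgALAS1 replicate 2 (highest adjusted p 0.14). Against Vehicle its sgALAS1 value was 0.68 (adjusted p = 0.0185). IRF8, a factor of monocyte and dendritic cell development, rose with the guide from 227, 284 and 295 CPM to 467, 569 and 369.7 (0.80 ± 0.20, adjusted p = 0.0155). Vehicle stood at 168, 288 and 246 CPM, below all sgALAS1 libraries (1.0, adjusted p = 0.00306). Without sgSCR replicate 1 the adjusted p over sgSCR was 0.0554. TLR9, a receptor for unmethylated DNA, fell with SA from 4.0, 4.74 and 6.02 CPM to 0.389, 1.99 and 1.13 (-2.05 ± 0.63, adjusted p = 0.0292). That call was lost without Vehicle replicate 2 or 3 or SA replicate 1 or 3 (highest adjusted p 0.133) and against sgSCR. With the guide the lowest value among the 15 genes was -2.02 over sgSCR, where 0 passed as lower. The difference of the effects passed for 0 of the 15, so the TLR9 fall is not shown to be particular to SA. In sgALAS1 against Vehicle the lowest value was -2.94, where 3 of the 15 passed as higher and 1 as lower.

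Of 19 tested targets that mainly answer interferon gamma, 1 rose and 1 fell with the guide (10.5%, where 12% of all tested genes passed). With SA 1 rose (5.26%, where 11.2% passed), and 1 was higher in sgSCR than in Vehicle (5.26%, where 1.45% passed). In sgALAS1 against Vehicle 4 were higher and 1 lower (26.3%, where 15% of all tested genes passed). CXCL11, a chemokine, rose with the guide on few reads, 2, 0 and 1 in sgSCR and 12, 19 and 7 in sgALAS1 (3.55 ± 0.99, adjusted p = 0.0138), lost without sgSCR replicate 2 or 3 or sgALAS1 replicate 2 (highest adjusted p 0.0983) and against Vehicle (1.93, adjusted p = 0.116). Vehicle had 4, 4 and 3 reads and SA 6, 16 and 7, so sgSCR was the lowest group. PSMB8, a subunit of the immunoproteasome, fell with the guide from 108, 116 and 108 CPM to 72.9, 90.3 and 53 (-0.62 ± 0.14, adjusted p = 0.00197). It overlapped with Vehicle, at 79.3, 94.6 and 80 CPM (-0.23, adjusted p = 0.311). PSMB9, another subunit, was higher in sgSCR than in Vehicle by 1.0 ± 0.16 (adjusted p = 0.000282), and TAP2, a peptide transporter, rose with SA by 0.37 ± 0.12 (adjusted p = 0.0356), a call that ended without any 1 of the 6 libraries (highest adjusted p 0.113). The TAP2 call was also lost against sgSCR, without the filter on low counts and with only the libraries of the 2 groups in the fit.

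**Figure D4:**
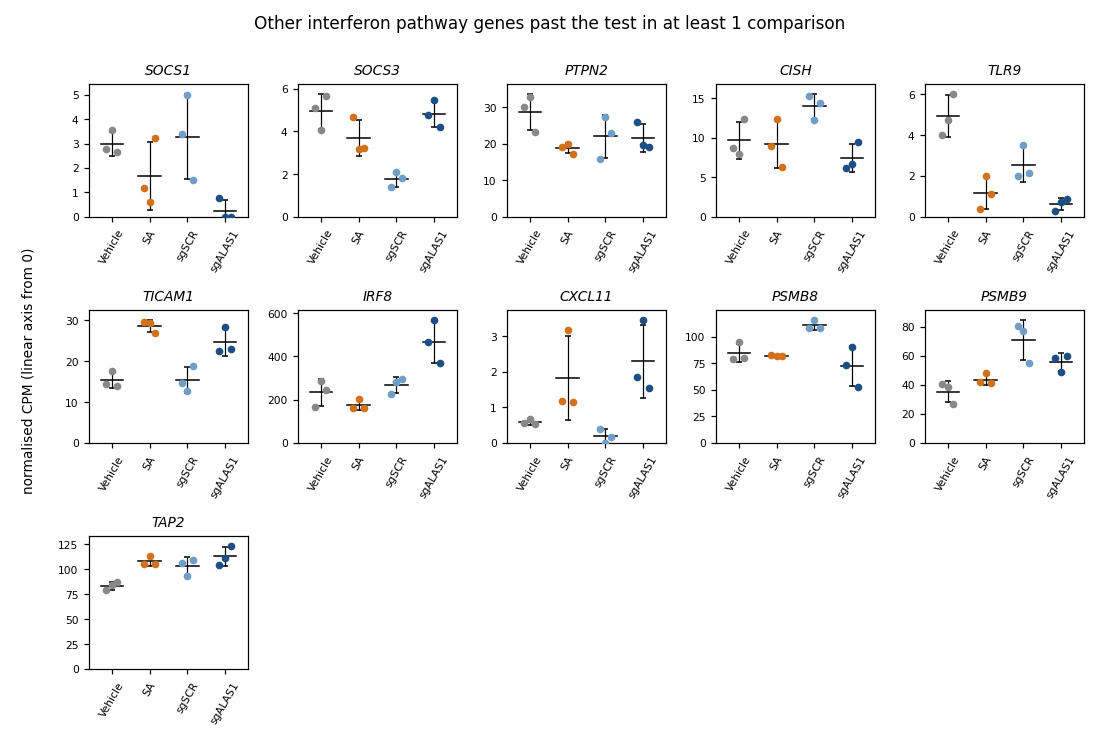
Normalised CPM of 11 other interferon pathway genes that passed the test with the guide, with SA or between the controls, 1 panel per gene on a linear axis from 0, with a point per library, a line at the mean of 3 libraries and bars of 1 SD. IRF8 is highest in sgALAS1, SOCS1 is near 0 there, and TICAM1 is high in both SA and sgALAS1.

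Markers of other myeloid states moved with the groups as well. The summed level of 18 markers of maturing monocytes and granulocytes was 825.8 to 953.7 CPM in Vehicle, 1740 to 1774 in SA, 552.7 to 597.6 in sgSCR and 1264 to 1418 in sgALAS1. Of the 16 tested, 10 rose with SA, where 4.84% of all tested genes passed as higher, 11 rose with the guide, where 5.05% did, and 0 fell in either. Their median log2 fold change was 0.893 with SA and 1.23 with the guide. Of the same 16, 2 were lower in sgSCR than in Vehicle (12.5%, where 0.969% of all tested genes passed as lower), and FCGR3A had 0 reads. The summed level of 10 markers of plasmacytoid dendritic cells, which include IRF8, was 373.2 to 490.1 CPM in Vehicle, 390.6 to 428.9 in SA, 377.1 to 467.4 in sgSCR and 624.6 to 791.7 in sgALAS1. IRF8 and TCF4 made up most of that sum. Of the 5 tested, IRF8 and TCF4 rose and SPIB fell with the guide, and TCF4 and NRP1 rose and IL3RA and SPIB fell with SA. The defining genes CLEC4C and LILRA4 were at or near 0, with CLEC4C at 1.55 CPM in sgALAS1 replicate 3 and at 0 in the other sgALAS1 libraries. Markers of T, B and NK cells summed to 21.4 to 24.8 CPM in Vehicle, 5.05 to 9.95 in SA, 13.2 to 14.5 in sgSCR and 0.154 to 2.73 in sgALAS1, with CD3E, CD2 and KLRD1 at 0. NKG7 (401 reads over the 12 libraries) and CD3D (355) held most of these reads, and only 2 of the 10 markers had enough reads to be tested. The part of these shifts in the values of the interferon response genes was not tested.

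The core of the response element stood both in members that rose and in members that did not. Of the 11 members that rose with the guide and have a window, 7 held the core, as did 14 of the 26 that were tested without passing and all 6 that had too few reads. IRF7, OAS2 and TRIM22 rose and have no window here, and neither do DHX58, GBP2, IFIT2, IFITM2, LY6E, MX2, OASL and USP18. The longer form stood in 6 of the 11, 7 of the 26 and 3 of the 6. The gamma-activated site stood in 2 of the 11, 9 of the 26 and 1 of the 6.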

How the data were processed

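Per the labels' protocols, QuantSeq 3′ libraries of polyadenylated RNA were sequenced as single-end reads. The submitters' processing notes name bcl2fastq 2.17.1.14, cutadapt 1.14, HISAT2 2.0.4, featureCounts of Subread 2.0.0, edgeR 3.34.0, limma 3.48.3 and the build hg19. The sources used here do not give the annotation release, the strand setting or the treatment of reads with several matches. The authors deposited raw read counts per Ensembl identifier, and the columns were matched to samples by library name. Symbols came from a current gene table for 39538 identifiers and from GENCODE 29 for 12800, and 5567 had none.

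All 12 libraries were fitted by group in R 4.3.3 with edgeR 4.0.16 (filterByExpr, TMM, robust quasi-likelihood F-test, two-sided, Benjamini-Hochberg over 13832 identifiers, threshold 0.05), and the standard error was taken as the fold change over the square root of F. The biological coefficient of variation was 16.4%. Depth was 4658513 to 7339843 reads, so genes with few reads are the least precise. The fit was tested on simulated data. DESeq2 1.42.0, other size factors, no filter, other libraries in the fit, a replicate block, a 1.5-fold test, swapped controls and left-out libraries were tried. Full statistics are given for members past the threshold with the guide, with SA, between the controls or in the difference of the effects, for the 5 with the most reads and for the pathway genes past the threshold, of which some are not reported here. The other members with values, such as EIF2AK2, IRF1, MX2, OAS1 and DTX3L, were chosen after their values were seen. Members and lists were chosen with earlier results of these data known. Promoter windows came from RefSeq, GRCh38.p14, and were not combined with positions from the files.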

Additional observations from a re-analysis of the deposited data

Results flagged for a closer look

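The effects of the ALAS1 guide and of SA differed by a direct test for IRF7 and XAF1. For IRF7 the difference was 2.31 on the log2 scale (edgeR adjusted p = 0.00084), from 1.08 with the guide and -1.23 with SA, and all 3 sgALAS1 libraries lay above all sgSCR libraries while all 3 SA libraries lay below all Vehicle libraries. The controls differed as well: IRF7 was -1.82 in sgSCR against Vehicle (adjusted p = 0.000261), so SA and sgSCR libraries were both low and the difference includes this gap. For XAF1 the difference was 1.15 (adjusted p = 0.0304), from 0.70 and -0.45, and it was lost without Vehicle replicate 2 or SA replicate 2 or sgSCR replicate 1 or 3 or sgALAS1 replicate 3 (highest adjusted p 0.117). XAF1 was at -0.43 in sgSCR against Vehicle (adjusted p = 0.356), and its difference includes this gap too. The cause of either difference was not tested.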

How the results depend on the processing

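Depth limits the members with few reads: 8 of 54 were not tested, and OAS1, IFIT2 and IFI27 had large standard errors. With 3 libraries a group, many calls ended when 1 library was left out. A test against a 1.5-fold change called 0 members with SA, 1 with the guide, 1 between the controls and 1 for the difference. Size factors, filter and mitochondrial reads kept the numbers of members called within 1.5 times, except that DESeq2 called 5 members in sgSCR against Vehicle in place of 2. Between each treated group and its control, residuals of libraries with the same replicate number correlated at -0.0808 to 0.075 and others at -0.184 to 0.134. With 3 libraries a group these values are too few to decide whether replicate numbers pair the samples. With the replicate block 8 members were called with SA, 17 with the guide, 3 between the controls and 3 for the difference. No group could be compared within a batch, since the labels give none.

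When each library was left out, the members called ranged from 3 to 7 with SA, from 8 to 13 with the guide, from 1 to 3 between the controls and from 1 to 3 for the difference. The lowest counts came without SA replicate 2 (3), without sgSCR replicate 2 (8), without Vehicle replicate 3, sgSCR replicate 1 or sgSCR replicate 2 (1) and without sgSCR replicate 1, sgSCR replicate 3 or sgALAS1 replicate 3 (1). The members' median log2 fold change ranged from -0.0099 to 0.154 with SA, from 0.447 to 0.644 with the guide, from -0.212 to -0.0528 between the controls and from 0.371 to 0.5 for the difference, and with only the libraries of the 2 control groups in the fit their median was -0.0997. In the promoters, the longer motif stood in 16 members in place of 27.

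Directions that turned were mostly of values that had not passed. With the other control, SA values became 0.589 for IRF7, 0.092 for ADAR, 0.594 for PARP9, 0.395 for TRIM25 and -0.251 for IFITM2, and sgALAS1 values became -0.741 for IRF7, -0.239 for TRIM25, 0.292 for IFITM2 and -0.0343 for SOCS3. Of these, the TRIM25 value with SA passed as higher (edgeR adjusted p = 0.0405). With the block PARP9 was at 0.00626 with SA. For the guide IFITM2 was at 0.000577 with RLE size factors, 0.000511 with DESeq2 and 0.00923 without mitochondrial transcripts. Left-out libraries gave SA ranges of -0.175 to 0.56 for IFIT3, -0.225 to 0.244 for PARP9 and -0.0373 to 0.207 for IFITM2, and guide ranges of -0.384 to 0.0888 for USP18 and -0.0456 to 0.0761 for IFITM2. Between the controls the ranges were -0.441 to 0.0236 for USP18, -0.149 to 0.358 for TRIM21, -0.0247 to 0.361 for TRIM22, -0.303 to 0.28 for ISG15 and -0.239 to 0.159 for SAMD9L. For the difference they were -0.459 to 0.0446 for TRIM21, -0.154 to 0.246 for TRIM22, -0.0515 to 0.343 for SAMD9 and -0.213 to 0.0316 for IFITM2. The cause was not tested.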
